A study of Homo sapiens with 4 samples.

Results

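Within each of 4 sets of melanoma cells, the cells with the most RNA of 5 pigment genes (pigment-high cells) were compared with the cells that had the least (pigment-low cells). The cells were chosen by the summed unique molecules (UMIs, each 1 captured RNA molecule) of PMEL, MLANA, DCT, TYRP1 and TYR, multiplied by 10000 and divided by the cell's total UMIs. The top 20% of each set made up 1635 pigment-high cells and the lowest 20% made up 1635 pigment-low cells, of 8173 cells in all. Because these 5 genes selected the cells, their own values are given only as a description, and they were left out of every gene count that follows.

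The cells came from 4 established human melanoma lines: 113/6-4L, described as highly metastatic to lung, 131/4-5B1 and 131/4-5B2, both described as highly metastatic to brain, and WM239A, described as poorly metastatic. Each line was sequenced once, with a droplet method that reads the 3' ends of transcripts. The deposited table marks cells with 1 of 4 barcode suffixes, here called sets 1 to 4, and no source used here ties a suffix to a line. Pigment-high and pigment-low cells were therefore always compared inside a set, and the question is what the 4 sets have in common. Both groups share line, culture and library if each suffix stands for 1 library, which was taken as given.

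Melanin is made in the melanosome, an organelle that pigment cells build from the same endosomal system as lysosomes. PMEL forms the fibrils inside it, TYR, TYRP1 and DCT are enzymes of melanin synthesis, and MLANA is a small membrane protein of the maturing organelle. MITF, a basic helix-loop-helix transcription factor, switches on much of this programme in melanocytes and melanoma cells, and its relatives TFEB and TFE3 control lysosomal genes. In cultured melanoma, low levels of the pigment programme are known to go with less differentiated states marked by AXL or NGFR.

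The median score was 74.4, 75.0, 117 and 109 UMIs per 10000 in the pigment-high cells of sets 1 to 4, against 23.2, 34.7, 51.3 and 46.2 in the pigment-low cells. The scores formed 1 continuous distribution in each set, so both groups are ranges of a score and not cell types. In set 3, for example, the last cell counted as high had a score of 102.44 and the next cell outside had 102.42. Between 151 and 212 cells of each set lay within 5% of the upper limit, and between 113 and 161 lay within 5% of the lower one.

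**Figure D1:**
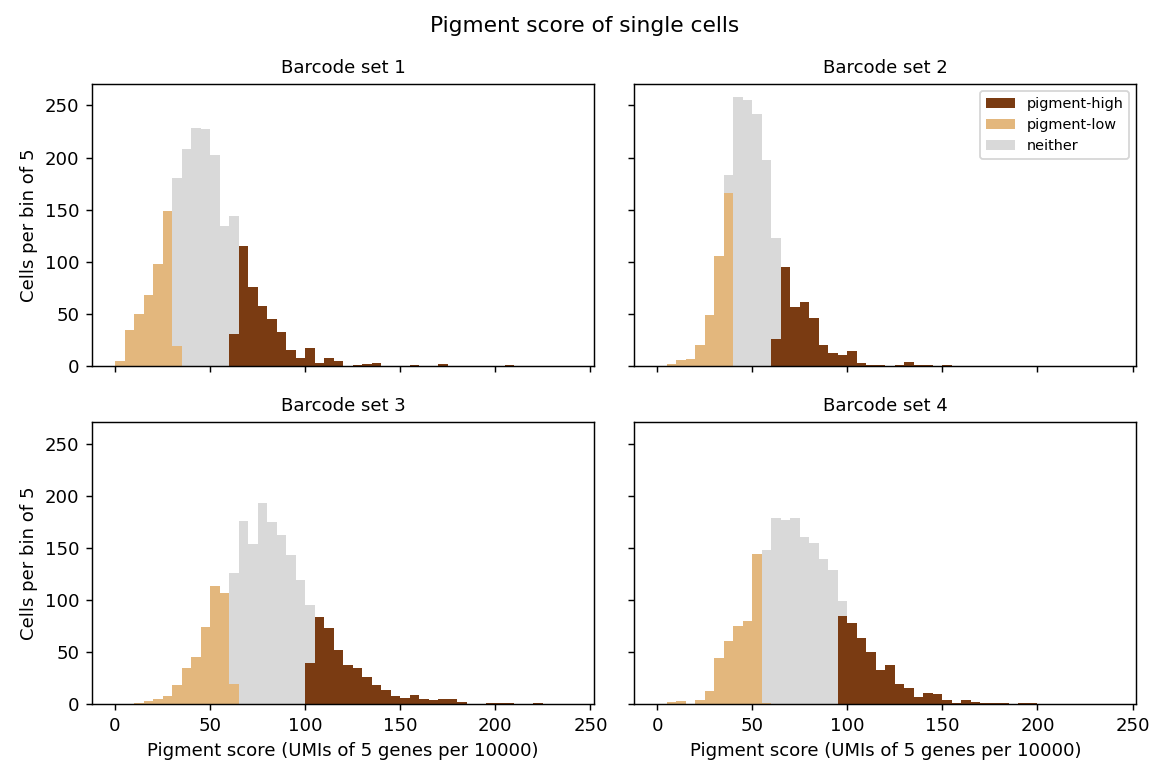
Number of cells (vertical axis, bins of 5) by pigment score (horizontal axis, UMIs of the 5 genes per 10000 UMIs) in barcode sets 1 to 4. Dark bars are pigment-high cells, light brown bars pigment-low cells and grey bars the cells in neither group; the scores run on without a gap at either limit, and the median of all cells is 45.7, 50.03, 80.2 and 73.8 in sets 1 to 4.

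PMEL carried most of the score in pigment-high cells. It stood at 4275, 4773, 8308 and 7611 counts per 1000000 UMIs (CPM, over the summed cells of a group) in pigment-high cells, against 823, 1522, 2319 and 2010 CPM in pigment-low cells. MLANA stood at 2973, 2642, 3209 and 3117 CPM in pigment-high cells and at 1109, 1604, 2200 and 2058 CPM in pigment-low cells. PMEL thus supplied 54.8% to 68.3% of the score's UMIs in pigment-high cells and 38.4% to 46.6% in pigment-low cells. In pigment-low cells MLANA supplied 44.2% to 51.8%. TYRP1 was close to absent: it had 8.14 CPM in the pigment-high and 8.83 CPM in the pigment-low cells of set 1, and less than 1.2 CPM in either group elsewhere, so it did not mark the pigment-high cells.

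The 2 groups were sequenced to like depth. Their summed counts held between 13331593 and 14180849 UMIs, and the median cell had 32904.5, 38864.5, 30940.0 and 32878 UMIs in pigment-high cells, against 33392.5, 38887.5, 32763 and 30839 in pigment-low cells. Of markers of other cell types, the fibroblast and endothelial lists had 0 measured members, and their summed levels were at most 14.2 and 3.38 CPM. Of the immune list CD68, a lysosomal membrane protein also found outside immune cells, was the 1 measured member, at 40.8, 42.9, 36.4 and 44.2 CPM in pigment-high cells and 18.4, 27.6, 35.8 and 25.1 CPM in pigment-low cells, while the leukocyte marker PTPRC had at most 0.141 CPM and CD14 was at 0 throughout. KRT18 was the 1 measured epithelial marker, and the 4 glial markers, which melanoma cells are known to share, were measured with sums of 1550 to 3216 CPM in pigment-high cells and 1635 to 3816 CPM in pigment-low cells. Doublets were left in and free RNA was not removed, and no cell type that should lack PMEL was present to measure it. Across the sets, 39 barcode sequences occurred more than once.

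Of 4745 genes with a mean of at least 20 CPM, 99 were at least 25% higher in pigment-high cells in all 4 sets (2.09%) and 54 were at least 20% lower in all 4 (1.14%). Both limits are the same size, 0.32, on the log2 scale, and a gene past it in all 4 sets is described below as shared. With no replicate of any set, the limit is a size and not a test. Taken set by set, the genes past it were 8.01% higher and 7.86% lower in set 1, 6.24% and 5.73% in set 2, 7.71% and 10.8% in set 3, and 9.08% and 8.98% in set 4. Most differences were therefore not shared: the 99 shared genes were 26.1%, 33.4%, 27% and 23% of those higher in sets 1 to 4, and the 54 were 14.5%, 19.9%, 10.5% and 12.7% of those lower. At 1.5-fold, 15 genes were higher and 4 lower in all sets, and at 2-fold 3 and 0. Differences are given as log2 ratios of CPM + 1, pigment-high over pigment-low, for which the median of all genes lay between -0.04 and -0.02 in the 4 sets. Intervals are exact 95% intervals that cover counting error only.

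APOE, a secreted lipid-binding protein, showed the clearest shared difference. It stood at 711, 1394, 2240 and 1829 CPM in the pigment-high cells of sets 1 to 4, against 183, 491, 791 and 624 CPM in the pigment-low cells. Every set thus had more APOE in its pigment-high cells, by 3.89-fold (3.72 to 4.06) in set 1, 2.84-fold (2.76 to 2.92) in set 2, 2.83-fold (2.77 to 2.90) in set 3 and 2.93-fold (2.86 to 3.0) in set 4. APOD and APOC1, which also bind lipids, were shared too, as was SCARB1, a lipoprotein receptor, so that 4 of the 8 measured genes of apolipoproteins and lipid transport were higher and 0 lower, with a list median of 0.44. APOD was at 31.3, 74.1, 346 and 276 CPM in pigment-high cells, against 16.1, 31.2, 203 and 128 CPM in pigment-low cells. The lipid-droplet protein PLIN2, with a median log2 ratio of 0.08, and the fatty-acid carrier FABP5, with 0.03, were 2 members near 0, named after their values were seen.

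RLBP1, a retinaldehyde-binding protein best known from the eye, came next. It was at 17.9, 51.2, 49.8 and 44.3 CPM in pigment-high cells and between 4.95 CPM, in set 1, and 20.3 CPM, in set 2, in pigment-low cells. Its mean over the pigment-low cells alone was under 20 CPM, so RLBP1 reached the required mean only through the pigment-high cells. CPVL, a carboxypeptidase-like protein, was at 47.8, 132, 121 and 127 CPM in pigment-high cells, against 15.0, 62.7, 54.2 and 48.7 CPM in pigment-low cells. With APOE these were the 3 genes past 2-fold in all 4 sets. ECM1, a secreted matrix protein, had log2 ratios of 0.73, 0.74, 0.75 and 1.01, and LGALS3BP, a secreted glycoprotein, had 0.57, 0.75, 0.89 and 0.97.

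**Figure D2:**
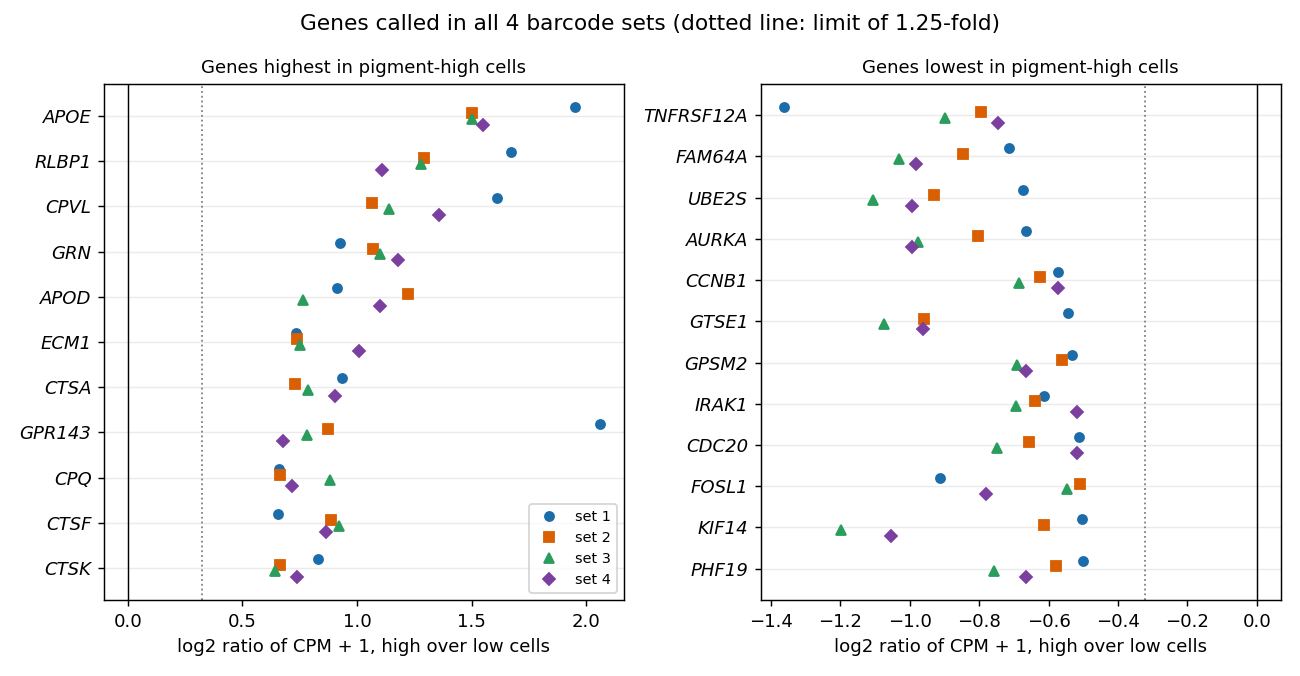
Log2 ratio of CPM + 1, pigment-high over pigment-low (horizontal axis), for shared higher genes (left) and shared lower genes (right) that rank among the first 12 by their smallest difference over the sets. Each symbol is 1 barcode set and the dotted line marks the limit of 0.32; APOE lies between 1.5 and 1.95, while GPR143 and TNFRSF12A each have set 1 far from the others.

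Among the other genes of the melanosome, 7 of 26 measured members were higher in all 4 sets and 0 lower, with a list median of 0.18. GPR143, a receptor in the melanosome membrane, was at 43.6, 8.33, 83.2 and 61.3 CPM in pigment-high cells, against 9.68, 4.10, 48 and 38 CPM in pigment-low cells. Its ratio was 4.50 (3.73 to 5.46) in set 1 and between 1.62 and 2.03 in the other sets. SLC45A2, a transporter needed for normal melanosome pH, was at 229, 198, 172 and 182 CPM in pigment-high cells and at 133, 132, 114 and 110 CPM in pigment-low cells. MLPH, which links melanosomes to the motor that moves them along actin, had log2 ratios of 0.82, 0.60, 0.67 and 0.71, and TRPM1, a cation channel whose gene is a known MITF target, had 1.43, 1.0, 0.39 and 0.48. The remaining 3 shared members, named after their values were seen, were the ion exchanger SLC24A5, the tetraspanin CD63 and the small GTPase RAB38, with median log2 ratios of 0.51, 0.47 and 0.46.

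The other melanosome genes were not shared. The partners of MLPH in transport had their largest ratios in set 1: RAB27A had log2 ratios of 1.02, 0.34, 0.19 and 0.21, and the motor MYO5A had 0.96, 0.31, 0.31 and 0.27. Genes for sorting cargo to the organelle, such as BLOC1S1 at -0.04, HPS1 at -0.01 and AP3D1 at -0.08, lay near 0 in the median. MC1R, the receptor for the hormone that stimulates pigmentation, pointed the other way, with log2 ratios of -0.17, -0.23, -0.18 and -0.24, which is short of the limit. RAB27A, MYO5A, BLOC1S1, HPS1, AP3D1 and MC1R were named after their values were seen. GPNMB, a glycoprotein of melanosomes and lysosomes related to PMEL, had 0.30, 0.18, 0.11 and 0.12 and was not shared.

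Lysosomal genes made up the largest group of shared higher genes among the lists examined. Of 30 measured lysosomal genes, 13 were higher and 0 lower in all 4 sets, the list median was 0.36, and 26 members had a ratio above 0 in every set, as 22.1% of all 4745 genes did. GRN, the precursor of lysosomal granulins, was at 162, 133, 228 and 194 CPM in pigment-high cells, against 84.7, 62.7, 106 and 85.0 CPM in pigment-low cells. Its ratio lay between 1.91 (1.78 to 2.05) in set 1 and 2.28 (2.13 to 2.45) in set 4. CTSA, which protects other lysosomal enzymes, was at 230, 181, 230 and 219 CPM in pigment-high cells and at 120, 109, 133 and 117 CPM in pigment-low cells. HEXA, a subunit of the enzyme that degrades gangliosides, had nearly 1 value in all sets, with log2 ratios of 0.61, 0.63, 0.63 and 0.62. GAA, which breaks down glycogen in lysosomes, had 0.62, 0.50, 0.62 and 0.67. GAA reached the mean of 20 CPM only through the pigment-high cells.

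Other shared lysosomal members included ASAH1, CTSB, PSAP, CTSD, GLB1, GLA, GUSB and LIPA, enzymes and an activator that degrade lipids, sugars and proteins. Members other than GRN, CTSA, HEXA, GAA and ASAH1 were named after their values were seen. Outside that list, the cysteine proteases CTSF and CTSK and the carboxypeptidase CPQ were shared, with median log2 ratios of 0.88, 0.70 and 0.69. The members nearest 0, also named after their values were seen, were CTSZ at 0.03, CD164 at 0.08 and SCARB2, a membrane receptor that carries an enzyme to lysosomes, at 0.08. Of 15 measured subunits and partners of the proton pump that acidifies both organelles, 3 were shared, ATP6AP1, ATP6V1H and ATP6AP2, with medians of 0.48, 0.48 and 0.41, and the list median was 0.11.

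The 250 bases before the annotated start were searched on both strands for 3 short sequences (RefSeq windows, build GRCh38.p14). CACGTG and CATGTG, the second of which reads CACATG on the other strand, are the forms of the E-box known to be bound by MITF and its relatives. TTTGAA, which reads TTCAAA on the other strand, is the core of an element found in genes of late cell cycle phases. Windows were found for 78 of the 99 shared higher genes, 41 of the 54 shared lower genes and 3952 of all 4745, and matches of different sequences in a window were counted separately. CATGTG was in a window of 18 of the 78 shared higher genes (23.1%), 0 of the 41 shared lower genes and 8.22% of all tested genes. CACGTG was in 16.7%, 17.1% and 13.2% of the same groups, and TTTGAA in 15.4%, 31.7% and 11.8%. Counted over all 35116 windows in the table, CATGTG was in 9.42%, CACGTG in 6.34% and TTTGAA in 13.3%. A match is a string of letters and does not show binding. The 70 bases before the start are printed below in the direction of transcription with each E-box in capitals. Other shared higher genes, among them TRPM1, CPVL and CTSD, also hold an E-box in that stretch and are not shown. Shared lower genes hold CACGTG too, among them CDKN2C at -69 and CCNB1 at -196 from an annotated start, and are not shown with it. The 5 shared higher genes shown were picked as examples. They are GPR143 (chrX:9765848-9765917, minus strand), MLPH (chr2:237487181-237487250, plus strand), CTSA (chr20:45891265-45891334, plus strand), CTSF (chr11:66568607-66568676, minus strand) and GAA (chr17:80101511-80101580, plus strand).
GPR143: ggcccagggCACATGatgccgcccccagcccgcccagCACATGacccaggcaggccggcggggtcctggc
MLPH: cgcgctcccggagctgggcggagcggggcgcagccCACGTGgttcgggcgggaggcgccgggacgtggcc
CTSA: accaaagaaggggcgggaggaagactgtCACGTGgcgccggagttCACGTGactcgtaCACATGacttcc
CTSF: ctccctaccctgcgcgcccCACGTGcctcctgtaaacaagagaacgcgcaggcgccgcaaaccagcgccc
GAA: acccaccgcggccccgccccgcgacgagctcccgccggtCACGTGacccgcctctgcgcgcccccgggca

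CTSA held 3 E-boxes within these 70 bases, GPR143 held 2, and the other genes shown held 1 each.

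MITF itself was higher in pigment-high cells of every set but missed the limit in 2 of them. It was at 294, 229, 298 and 289 CPM in pigment-high cells, against 224, 170, 239 and 239 CPM in pigment-low cells. The log2 ratios were 0.39, 0.42, 0.32 and 0.28, just under the limit in set 3 and under it in set 4, so MITF was not a shared gene. Its median of 0.36 was close to that of the lysosomal list. SOX10, which acts upstream of MITF in the neural crest lineage, had log2 ratios of -0.12, 0.06, 0.00 and -0.15, PAX3 had 0.18, 0.06, 0.04 and -0.23, and TFAP2A had 0.08, -0.11, 0.08 and 0.06. None of these 3 factors was past the limit in any set. The endothelin receptor EDNRB, at 86.1, 39.1, 96.3 and 93.6 CPM in pigment-high cells and 61.1, 28.2, 71.5 and 64.1 CPM in pigment-low cells, was the 1 shared gene among 13 measured lineage factors and their regulators. Of 19 measured genes linked to MITF for survival and metabolism, CTSK, ASAH1 and the acid phosphatase ACP5 were shared and 0 were lower.

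Among MHC class I genes, which present peptides to T cells, HLA-B and HLA-C were shared higher. HLA-B was at 97.7, 192, 218 and 171 CPM in pigment-high cells, against 68.7, 108, 124 and 99.5 CPM in pigment-low cells. It had log2 ratios of 0.50, 0.82, 0.81 and 0.77, and HLA-C had 0.48, 0.65, 0.69 and 0.72. Reads may be split among these near-identical genes, so their single values are uncertain. The median of the 11 measured genes of the pathway was 0.37, with the peptide transporter TAP1 at 0.14, 0.51, 0.29 and 0.55. The interferon-stimulated genes had 1 shared member of 10, the inflammatory protease CASP1, and a median of 0.16. CASP1 was at 3.96, 34.3, 91.9 and 88.0 CPM in pigment-high cells, against 2.62, 18.8, 71.4 and 52.0 CPM in pigment-low cells. In set 1 these were 55 and 37 UMIs, and the interval of the ratio, 0.981 to 2.36, included no difference. CD74, the chaperone of MHC class II, was at 107, 67.3, 5.08 and 7.72 CPM in pigment-high cells, against 149, 67.8, 8.89 and 15.9 CPM in pigment-low cells, so it was lower in pigment-high cells of sets 1, 3 and 4 and alike in both groups of set 2.

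**Figure D3:**
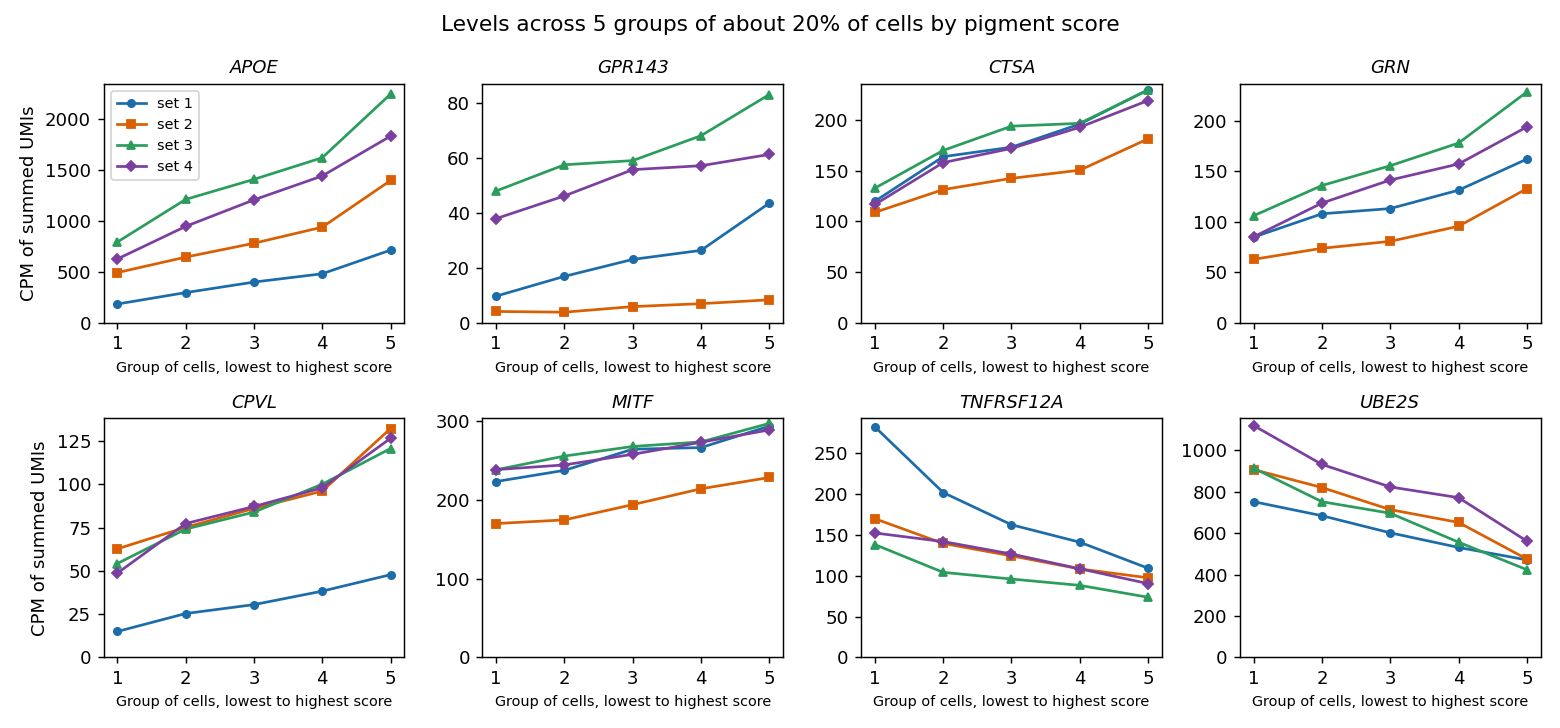
CPM of 8 genes (vertical axes, from 0) over 5 groups of about 20% of each set's cells ordered from lowest to highest pigment score (horizontal axes); the first group is the pigment-low and the last the pigment-high cells, and each line is 1 barcode set. APOE, CTSA, GRN, CPVL and MITF climb and TNFRSF12A and UBE2S decline at every step in all 4 sets; GPR143 has 1 step down, in set 2.

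Some differences were gradual and others were not. With the cells of a set in 5 groups of about 20% from the lowest to the highest score, APOE in set 1 was at 183, 295, 398, 480 and 711 CPM, and CTSA in set 3 was at 133, 170, 194, 197 and 230 CPM. Both genes, and also GRN, CPVL and MITF, increased at every one of the 4 steps in each set, so the cells between the limits were intermediate for these 5 genes. Other genes differed mainly at the low end in the sets given here. NGFR, a receptor of less differentiated cells, was at 33.9, 3.63, 1.48, 0.969 and 0.793 CPM in set 1. The AP-1 factor FOSL1 in set 3 was at 23.1, 15.8, 15.4, 14.9 and 15.5 CPM, and the endothelin receptor EDNRB in set 3 was at 71.5, 90.3, 88.4, 86.5 and 96.3 CPM. In these sets the 3 genes thus differed in the lowest group from the rest more than among the other 4 groups. Other sets did not all share this pattern. FOSL1 in set 1 was at 47.0, 39.0, 33.4, 28.8 and 24.5 CPM, and EDNRB in set 2 was at 28.2, 28.8, 30.3, 33.9 and 39.1 CPM.

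TNFRSF12A, the receptor for the cytokine TWEAK and a marker of undifferentiated melanoma, was the shared gene lowest in pigment-high cells by its smallest difference over the sets. It was at 109, 97.3, 73.6 and 90.2 CPM in pigment-high cells, against 282, 169, 138 and 152 CPM in pigment-low cells. Its ratio was 0.387 (0.365 to 0.411) in set 1, and sets 2 to 4 ranged between 0.534 and 0.593. FOSL1, an AP-1 transcription factor, was the other shared member of the undifferentiated list, at 24.5, 23.3, 15.5 and 14.9 CPM in pigment-high cells and 47.0, 33.5, 23.1 and 26.4 CPM in pigment-low cells. Its mean over the pigment-high cells alone was under 20 CPM, so FOSL1 reached the required mean only through the pigment-low cells. At equal depth, a UMI of FOSL1 was present in 18.4%, 19.7%, 15.7% and 11.9% of pigment-high cells, against 31.6%, 29.5%, 15.0% and 22.3% of pigment-low cells, so in set 3 the share of cells did not go with the CPM. TNFRSF12A and FOSL1 were the 2 lower of 16 measured members, 0 were higher, and the list median was -0.61, -0.14, -0.02 and 0.07 in sets 1 to 4. The list as a whole was thus lowest in set 1, less low in set 2 and near 0 in sets 3 and 4. The matrix protein TNC had log2 ratios of -0.64, -0.13, -0.75 and -0.75. JUN went in opposite directions, with -0.66 in set 1 and 0.65, 0.68 and 0.78 in sets 2 to 4.

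NGFR and AXL, receptors that each mark less differentiated melanoma states, were found in few cells, and mainly in set 1. NGFR had 11, 4, 1 and 2 UMIs in pigment-high cells, against 480, 17, 2 and 9 UMIs in pigment-low cells. AXL had 0 UMIs in the pigment-high cells of each set, against 68, 4, 1 and 1 UMIs in pigment-low cells, which makes it at least 22.2-fold lower in set 1 with 3 counts as the floor for the pigment-high cells. A UMI of either gene was present in 9 of 424 pigment-high cells of set 1 (2.12%), against 141 of 424 pigment-low cells (33.3%). Taken singly, NGFR was present in 30.4% and AXL in 7.31% of these pigment-low cells. In sets 2 to 4 the shares with either gene were 1.12%, 0.234% and 0.468% of pigment-high cells and 5.34%, 0.701% and 1.64% of pigment-low cells. The collagenase MMP1 was at 53.3, 0, 0.588 and 0.289 CPM in pigment-high cells, against 281, 0.0745, 3.88 and 3.83 CPM in pigment-low cells. With every cell that had a UMI of NGFR or AXL left out, TNFRSF12A and FOSL1 stayed shared, with median log2 ratios of -0.81 and -0.64.

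Genes of mitosis made up the largest group of lower genes among the lists examined. Of 38 measured G2 and M phase genes, 13 were lower and 0 higher in all 4 sets, the list median was -0.55, and 33 had a ratio below 0 in every set, as 32.5% of all genes did. UBE2S, which extends ubiquitin chains for the complex that ends mitosis, was at 471, 475, 424 and 562 CPM in pigment-high cells, against 752, 908, 915 and 1120 CPM in pigment-low cells. Cyclin B1 (CCNB1) was at 87.8, 82.7, 61.9 and 84.8 CPM in pigment-high cells and at 131, 128, 100 and 127 CPM in pigment-low cells. AURKA, a spindle kinase, had log2 ratios of -0.66, -0.80, -0.98 and -0.99. CDC20, an activator of the same complex, had -0.51, -0.66, -0.75 and -0.52. MKI67, a proliferation marker, had -0.26, -0.74, -0.87 and -0.74 and missed the limit in set 1.

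Other shared lower genes with roles in division were KIF14, a motor of cell separation, GTSE1 and GPSM2, which act at the spindle, and FAM64A, a mitotic regulator that RefSeq names PIMREG, with median log2 ratios of -0.83, -0.96, -0.61 and -0.91. KIF14 reached the mean of 20 CPM only through the pigment-low cells. The replication genes did not follow the G2 and M genes as a list. The S phase list had medians of 0.04, -0.07, -0.06 and 0.20 in sets 1 to 4, and 0.04 over the sets. Of its 23 measured members 0 were shared in either direction. Of all genes 2.09% were shared higher and 1.14% shared lower, so 0 of 23 is near these shares. Of 10 measured histone genes H2AFX was the 1 shared lower, at -0.52 in the median. As a list the histones were lower, with medians of -0.20, -0.21, -0.30 and -0.24 in sets 1 to 4. Of the 10, 7 had a ratio below 0 in every set, as 32.5% of all genes did, and 2 had a ratio above 0 in every set. Shared lower genes outside division included CDKN2C, an inhibitor of cyclin-dependent kinases, PHF19, a Polycomb partner, and IRAK1, a kinase of innate immune signalling, with medians of -0.72, -0.62 and -0.63. H2AFX holds the TTTGAA core at -164 from its start. Of the other lower genes named here with a window, 3 hold it in the 70 bases before the start, which are shown with it in capitals. They are CDC20 (chr1:43358911-43358980), GPSM2 (chr1:108876915-108876984) and GTSE1 (chr22:46296800-46296869), all on the plus strand.
CDC20: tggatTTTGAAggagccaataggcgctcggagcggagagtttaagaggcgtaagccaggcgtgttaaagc
GPSM2: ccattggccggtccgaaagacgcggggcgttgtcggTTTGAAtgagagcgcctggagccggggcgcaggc
GTSE1: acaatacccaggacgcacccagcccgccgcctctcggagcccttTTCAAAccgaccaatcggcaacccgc

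Each cell, once thinned to 10000 UMIs, was given a phase of the cell cycle. The call uses the S phase and the G2 and M lists described here, so the shares restate those counts per cell and are no separate evidence. The share of cells in G2M was 20.3% (16.6 to 24.5), 16.6% (12.9 to 20.9), 14% (10.9 to 17.7) and 19.0% (15.4 to 23.0) in the pigment-high cells of sets 1 to 4, against 29.5% (25.2 to 34.1), 37.4% (32.3 to 42.6), 32.8% (28.4 to 37.5) and 42.0% (37.3 to 46.9) in the pigment-low cells. Cells in S or G2M together made up 61.0%, 57.7%, 57.7% and 70.5% of pigment-high cells, against 61.3%, 75.6%, 73.5% and 83.8% of pigment-low cells, so set 1 differed in G2M but not in the sum. Cells in S alone made up 40.7%, 41.1%, 43.7% and 51.5% of pigment-high cells, against 31.8%, 38.2%, 40.7% and 41.8% of pigment-low cells. The S share was thus higher in the pigment-high cells of each set, with intervals that overlapped in sets 1 to 3. Free RNA can enter these assignments and was not measured. When cells were ranked inside each phase, so that both groups had the same phases, 88 genes were higher and 19 lower in all sets, of which 83 and 15 were shared in the comparison of all cells. The G2 and M list then had 1 lower gene of 39 and a median of -0.08, and CDC20 and CCNB1 were both at -0.02, but the matched phases rest on these same genes. TNFRSF12A (-0.78), UBE2S (-0.54), IRAK1 (-0.57), FAM64A and FOSL1 (both -0.46) stayed shared, with these medians over the sets, and 12 of 30 lysosomal genes were still higher, with a median of 0.36. With cells in G1 alone, 94 genes were higher and 53 lower in all sets, of which 71 and 19 were shared in the comparison of all cells. Of the G2 and M genes 11 were then measured and 4 were lower, at a list median of -0.31, with CDC20 at -0.84 and CCNB1 at -0.61. TNFRSF12A (-1.05) and UBE2S (-0.96) stayed shared in G1 cells, while FOSL1 (-0.50) and IRAK1 (-0.63) each missed the limit in 1 set and FAM64A (-1.11) was under the filter of 20 CPM, and 10 of 29 lysosomal genes were higher, with a median of 0.38.

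The mitochondrial share was higher in the pigment-high cells of sets 1 and 2 and close in both groups of sets 3 and 4. Its median was 5.88%, 7.42%, 7.19% and 7.17% in pigment-high cells, against 4.75%, 6.29%, 7.25% and 7.34% in pigment-low cells. With cells ranked inside 10 bins of that share, 93 genes were higher and 19 lower in all 4 sets, of which 80 and 18 were among the 99 and 54. The part of the mitochondrial share in the smaller number of lower genes was not tested.

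**Figure D4:**
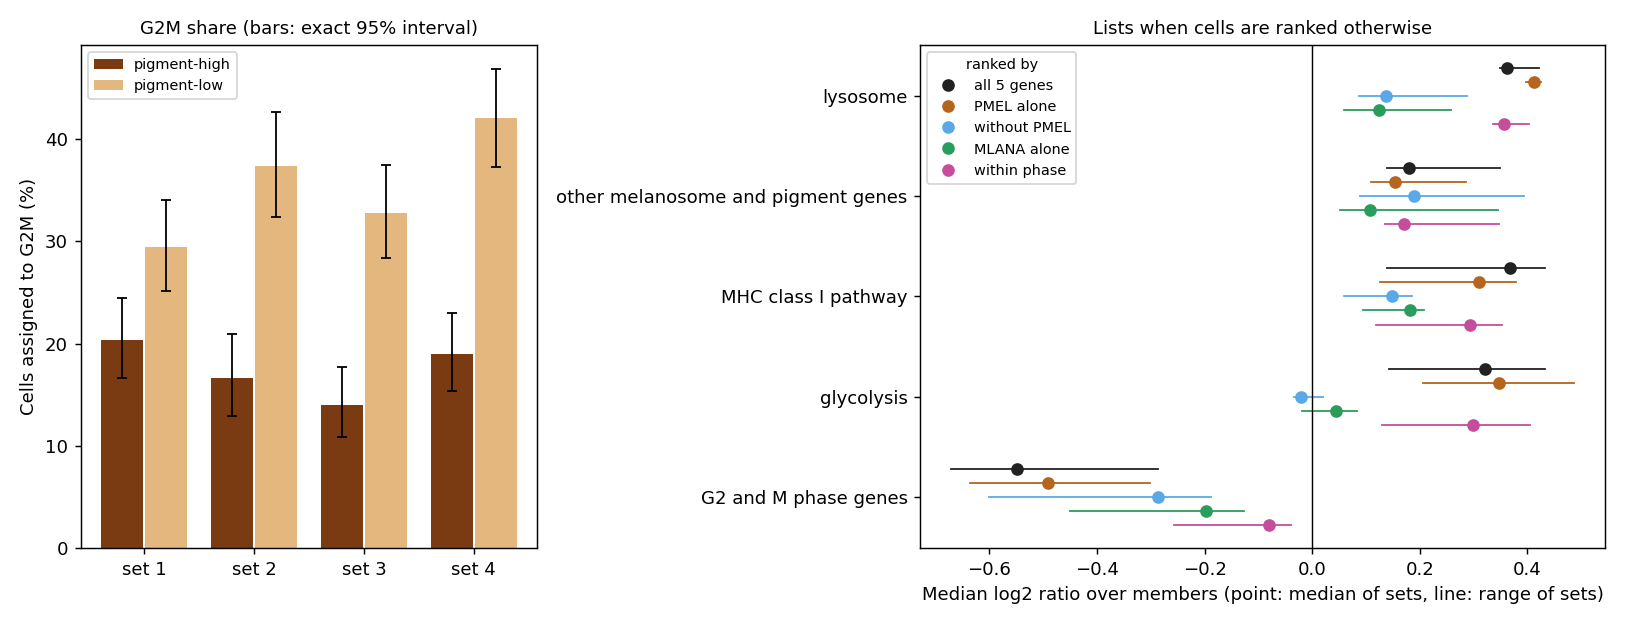
Left, percentage of cells assigned to G2M in pigment-high and pigment-low cells of each barcode set, with exact 95% intervals. Right, median log2 ratio over the measured members of 5 gene lists when the cells are ranked in 5 ways (point, median over members of each gene's median over the sets; line, range of the 4 sets); the lysosomal median is 0.41 with PMEL alone and 0.12 with MLANA alone, and the G2 and M median is -0.08 when cells are ranked within a phase.

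The shared genes depended on which of the 5 genes ranked the cells. With PMEL taken out of the score, 27 genes were higher and 25 lower in all 4 sets, of which 18 and 15 were among the 99 and 54. With PMEL alone as the score, 131 and 48 genes were shared, and with MLANA alone 23 and 21. Of the lysosomal genes there were 13 of 30 higher with PMEL alone, at a median of 0.41, but 1 of 30 with MLANA alone (0.12) and 1 of 30 without PMEL (0.14). GRN had a median of 1.11 with PMEL alone and 0.48 with MLANA alone. Of the 26 melanosome genes, 6 were higher with PMEL alone, 5 with MLANA alone and 5 without PMEL.

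TRPM1 had the reverse order of GRN. Its median log2 ratio was 0.33 with PMEL alone, where it was not shared, 1.05 with MLANA alone and 1.24 without PMEL. APOE, GPR143, MLPH and SLC45A2 were shared under each of these rankings, with medians for APOE of 1.51, 0.61 and 0.66 in the same order. TNFRSF12A was also lower in all sets under each of them, with -0.64, -0.66 and -0.79. MLANA has fewer UMIs than PMEL in the pigment-high cells, and its ranking drew deeper cells into the high group: the median cell had 33068, 43488.5, 33151 and 35148 UMIs in the MLANA-high cells, against 32280.5, 33623.5, 28706 and 27444 UMIs in the MLANA-low cells. The part of this depth gap and of counting noise in the smaller number of genes was not tested.

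Glycolysis genes were higher in pigment-high cells as a list, with a median of 0.14, 0.15, 0.40 and 0.43 in sets 1 to 4, but 1 of 18 measured members was shared, the phosphofructokinase PFKP. The hypoxia list had medians of -0.04, 0.09, 0.50 and 0.36 and 1 shared member of 13, the mitophagy receptor BNIP3L. The lactate exporter SLC16A3 had log2 ratios of -0.03, 0.39, 1.41 and 0.86, so this group of genes was a feature of sets 3 and 4 more than of set 1. Without PMEL in the score the glycolysis median was -0.02.

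**Figure D5:**
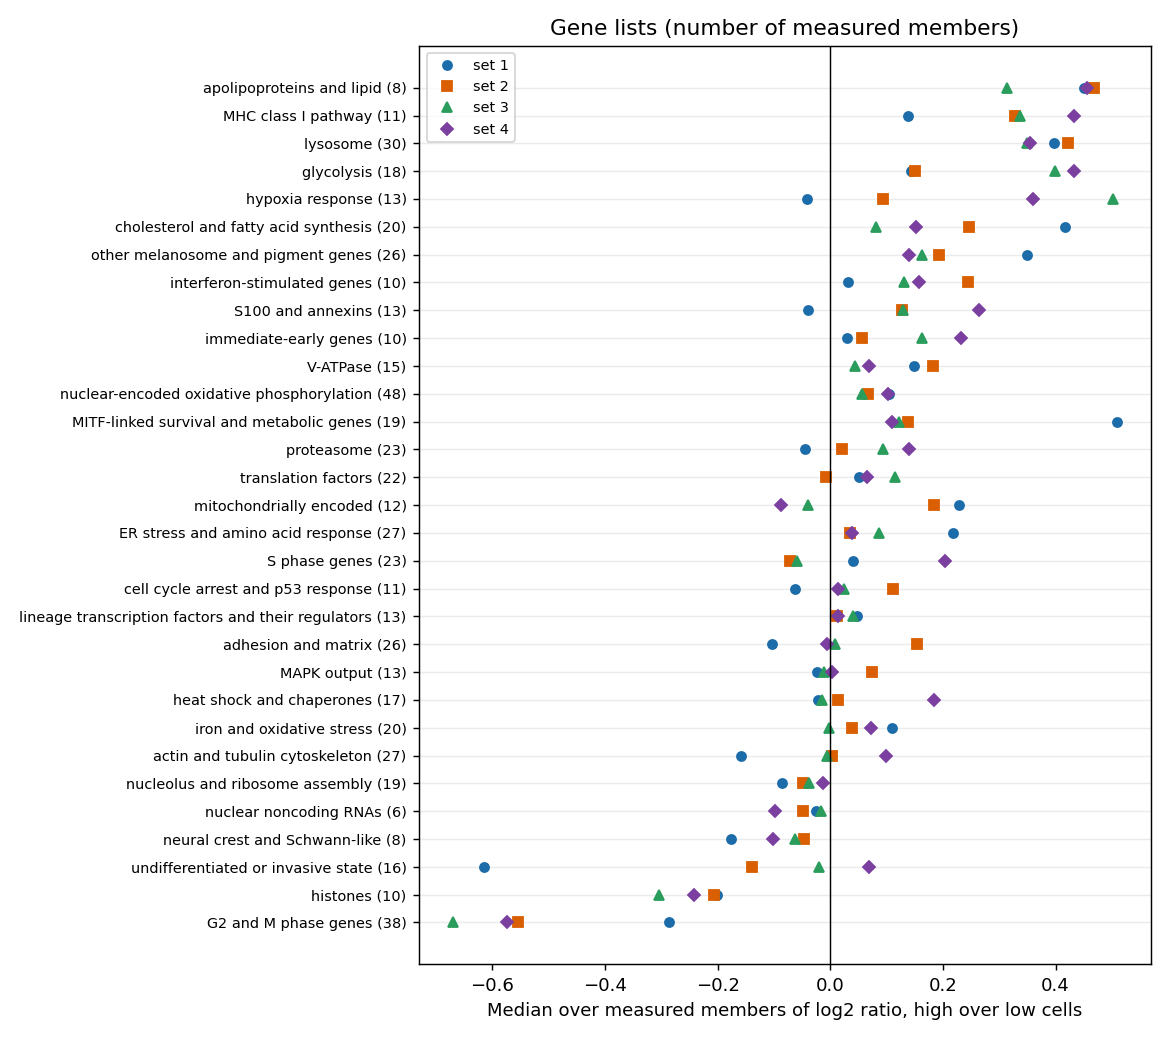
Median over measured members of the log2 ratio, pigment-high over pigment-low (horizontal axis), for each gene list with at least 5 measured members (number in brackets); symbols are the 4 barcode sets. The lysosomal list lies between 0.35 and 0.42, the G2 and M phase list between -0.67 and -0.29, and the undifferentiated list has set 1 at -0.61 apart from the others.

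Cholesterol and fatty acid synthesis genes had medians of 0.42, 0.25, 0.08 and 0.15, with HMGCS1, an early enzyme of cholesterol synthesis, as the 1 shared gene of 20 measured. Lists of translation factors, proteasome, nucleolus, and actin and tubulin had medians over the sets between -0.02 and 0.06, which is close to the median of all genes. In the actin and tubulin list CAPG, a protein that caps actin filaments, was shared, at 205, 23.3, 6.91 and 5.05 CPM in pigment-high cells, against 64.2, 6.92, 4.65 and 3.38 CPM in pigment-low cells. CAPG reached the mean of 20 CPM only through set 1. It had 94 against 66 UMIs in set 3 and 70 against 45 UMIs in set 4. The intervals of these ratios, 1.07 to 2.07 and 1.01 to 2.23, both reach under the limit.

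Genes in opposite directions were few. Of the 4745 genes, 27 were past the limit upwards in 1 set and downwards in another. C11orf96, chosen after its values were seen, had log2 ratios of 1.87, 1.58, -1.04 and 1.01, with 24.9, 29.5, 40.8 and 36.9 CPM in pigment-high cells and 6.08, 9.23, 84.8 and 17.9 CPM in pigment-low cells.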

How the data were processed

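Per the labels' protocols, single cells of 4 lines were prepared with the Chromium Single-cell 3' kit, version 2, 1 library a line. Cell Ranger 3.0.0, Seurat 3.0 and the builds hg19 and mm10 are listed, with no role, per the submitters' processing notes. The authors deposited raw UMI counts for 19238 genes and 8173 cells, in which cells had 3001 to 6999 genes and a mitochondrial share of up to 19.9%. Their table on a log scale was not used.

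Counts were summed over the high and over the low cells of each barcode set and divided by the set's group total (CPM). Genes with a mean of at least 20 CPM over the 8 sums were compared as the log2 ratio of CPM + 1, which understates differences of low genes. The mean covers both groups, so some genes, such as RLBP1, GAA, CAPG, FOSL1 and KIF14, passed only through the group where they were higher. Groups were chosen from the same counts, each set was taken as 1 unlabelled library and cells are not replicates, so no test was run. Phases came from scanpy 1.11.5, for cells with at least 10000 UMIs (9 were left out). TMM factors came from edgeR 4.0.16. The calculation was tested on simulated data. Ratio intervals are conditional binomial and share intervals Clopper-Pearson.

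The score, gene lists and comparisons were chosen with earlier results of these data known. Genes were named by rule: the 12 shared genes in each direction with the greatest smallest difference over the sets, up to 4 per list by median, and 13 lineage, state and cycle genes. Some genes that met it are not reported here. Mitochondrial, ribosomal protein and clone-named genes and 19 second entries of a symbol were not ranked. Members of a list that passed the 20 CPM filter are those called measured. Alternatives varied score, share of cells, phase, depth, mitochondrial share, scaling, filter, pseudocount and sets.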

Additional observations from a re-analysis of the deposited data

Results flagged for a closer look

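In 15 of 183 values compared over the 4 sets (named genes, lists and cell measures), 1 set lay apart from the others by more than the 95% critical value of Dixon's test. Chance does this in about 1 of 20 groups, and the values are not independent.

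Set 1 was the one apart in 9 of them. Its log2 ratio, pigment-high over pigment-low, was 1.95 for APOE (1.5 to 1.55 in the other sets), 2.06 for GPR143 (0.68 to 0.87), 1.27 for ASAH1 (0.53 to 0.62), 1.09 for ACP5 (0.37 to 0.47) and 1.22 for LGALS3 (0.51 to 0.63). It was 0.50 for HLA-B (0.77 to 0.82), -0.66 for JUN (0.65 to 0.78) and -0.30 for S100B (-0.06 to -0.05). The median of genes linked to MITF was 0.51 in set 1 (0.11 to 0.14 elsewhere).

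In set 2 TFAP2A was at -0.11 (0.06 to 0.08 elsewhere). In set 3 the apolipoprotein list was at 0.31 and the metallothionein list at -0.20. In set 4 ECM1 was at 1.01, TYMS at 0.0026 and the heat shock list at 0.18.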

How the results depend on the processing

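Each ratio already pairs the pigment-high and pigment-low cells of 1 set, and no test was run over the 4 pairs, because the groups were chosen from the same counts. The equal weight of 4 genes, the rankings by PMEL or MLANA alone and the exclusion of cells with NGFR or AXL were chosen after seeing the data. Against 99 higher and 54 lower shared genes, the counts were 159 and 143 with the top and lowest 10% of cells, 65 and 30 with 30%, 27 and 25 without PMEL, 52 and 29 with equal weight of the 5 genes, 23 and 21 with MLANA alone, 61 and 26 at 50 CPM, 195 and 123 with no filter, and 15 and 4 at 1.5-fold. The lower count alone moved past 1.5 times to 35 with equal weight of 4 genes, to 19 within phases, to 19 within mitochondrial bins and to 35 with a pseudocount of 10 CPM. With G1 cells alone the counts were 94 and 53, of which 71 and 19 were among the 99 and 54. Leaving out 1 set gave 109 to 140 higher and 63 to 129 lower genes, with 129 lower without set 1 and 98 without set 2. The stricter limits and filters leave fewer genes by construction; for the other settings the cause was not tested. Among 899 medians of lists, 760 stayed within the range of the list's 4 set medians in the main comparison. Another 132 moved outside that range and 7 changed sign. A change of sign was counted only for lists with 1 sign in all 4 sets and a main median not close to 0. Without PMEL the immediate-early list went to -0.0032 and glycolysis to -0.020. KRT18, the 1 keratinocyte marker measured, went to -0.16 without PMEL, -0.094 and -0.10 with equal weight of 5 and of 4 genes and -0.11 with MLANA alone. The immune markers went to -0.026 with no filter. The G2M difference, pigment-high minus pigment-low, became -7.95, -8.43, -8.71 and -6.54 percentage points in set 2 (without PMEL, equal weight of 5, of 4, MLANA alone), and -9.21, -12.6, -11.2 and -5.22 in set 4; the S or G2M difference in set 2 became -7.22 with MLANA alone. Depth limits AXL and NGFR outside set 1, with at most 17 UMIs in a group.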
